A study of Mus musculus with 20 samples.

Results

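Transcripts of 10 genes for subunits of Polycomb repressive complex 2 (PRC2) were followed through 16 RNA libraries of mouse preimplantation embryos. The members are the catalytic subunits Ezh1 and Ezh2, the core subunits Eed and Suz12, the PRC2.2 subunits Jarid2 and Aebp2, and the PRC2.1 subunits Mtf2, Phf1, Phf19 and Epop. They were chosen by gene name, 10 of the 24411 genes listed. For 9 the symbol matched, and Epop is listed under its older name E130012A19Rik. Each library came from a pool of 10 embryos made by in vitro fertilisation of superovulated oocytes and grown in KSOM medium. In the knockdown experiment, one-cell embryos were electroporated with non-targeting small interfering RNA (siControl) or with siRNA against Pcgf5 (siPcgf5), and grew for 36 hours from insemination, to the late 2-cell stage, or for 72 hours, to the morula, with 2 libraries in each of the 4 groups. In the knockout experiment, 4-cell embryos (48 hours) were WT (2 libraries) or carried a heterozygous (Hetero KO, 3 libraries) or homozygous (Homo KO, 3 libraries) deletion of MT2C_Mm, a long terminal repeat of the ERVL class of retroviral elements, to which MERVL belongs, at Pcgf5. Strain, the deleted interval and the siRNA targets are not given in the sources used here. The labels give electroporation for the knockdown experiment alone, siControl included, and no library of untreated embryos at the other stages was analysed here. The series title asks how MERVL-driven Pcgf5 bears on zygotic genome activation.

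PRC2 places methyl groups on lysine 27 of histone H3 (H3K27me1, me2 and me3), and H3K27me3 is the mark of Polycomb-silenced chromatin. Ezh2 or its weaker paralogue Ezh1 carries the methyltransferase domain, Eed reads existing H3K27me3 and stimulates the enzyme, and Suz12 is the scaffold to which the accessory subunits attach. The accessory subunits define 2 forms: PRC2.1, with a Polycomb-like protein (Phf1, Mtf2 or Phf19) that binds CpG-rich DNA and, in some of these complexes, Epop, and PRC2.2, with Aebp2 and Jarid2. Jarid2 and Aebp2 can bind H2AK119ub1, the histone mark made by PRC1, and Pcgf5 is a subunit of a variant PRC1. In early mouse embryos, H3K27me3 inherited from the oocyte keeps the maternal allele of a few genes silent.

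Summed expected counts per library ran from 14310634 (4-cell) to 55620137 (morula), and the members together took between 0.172% and 0.272% of them. Stage labels were checked on marker lists. The 8 late 2-cell markers (Zscan4 and related genes) summed to between 1720 and 3360 CPM (counts scaled to library sizes adjusted by TMM, the trimmed mean of M-values) in the late 2-cell libraries, 36.6 to 459 at the 4-cell stage and 8.80 to 45.4 in morulae, and 8 morula markers to between 30.3 and 36.1, 23.5 and 81.1, and 422 and 538 CPM. The WT replicate 2 library stood apart from the 7 other libraries of that stage, with late 2-cell markers at 36.6 CPM against 98.3 to 459, and with the highest sum of morula markers (81.1 CPM). The 6 oocyte markers fell from between 2138 and 3342 CPM at the late 2-cell stage to between 27.9 and 63.5 CPM in morulae, and 8 markers of cumulus and granulosa cells stood between 21.1 and 38.7 CPM at the late 2-cell stage and at most 0.137 CPM in morulae. Sperm markers (6 genes) reached at most 14.3 CPM in any library. The blood list reached 354 CPM through Hba-a2, with Hbb-bs and Hbb-bt at 0 in all 16 libraries. The part of these cells in the values of the members was not tested.

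Pcgf5, the targeted gene, was at 316 and 811 CPM in the siControl and 53.9 and 89.4 CPM in the siPcgf5 late 2-cell libraries. In morulae it was at 246 and 166 CPM with siControl and 39.5 and 32.4 CPM with siPcgf5. At the 4-cell stage it was at 328 and 294 CPM in WT, 336, 252 and 284 CPM in Hetero KO and 191, 211 and 162 CPM in Homo KO. Each siPcgf5 and Homo KO library was below each of its control libraries, while Hetero KO overlapped WT. In edgeR's quasi-likelihood test over all genes the differences from control were -2.96 on the log2 scale (adjusted p = 0.0789) at the late 2-cell stage, -2.53 (adjusted p = 0.242) in morulae and -0.72 (adjusted p = 0.236) in Homo KO against WT, none past the threshold of 0.05. DESeq2 called all 3 (adjusted p = 6.1e-09, 2.3e-05 and 0.0408).

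The promoters of the members that moved most, and the 3 annotated starts of Aebp2, are shown first, because the later paragraphs turn on these genes. Each window runs 5′ to 3′ on the gene's strand, from 250 bases before to 50 after the start of transcription, as in RefSeq on GRCm38.p6. Jarid2 (chr13:44730524-44730823, plus strand, the first of 2 starts) and Eed (chr7:89980927-89981226, minus strand) rose between the stages. Phf1 (chr17:26932877-26933176, plus strand) and Ezh1 (chr11:101226414-101226713, minus strand) fell. The Aebp2 windows (chr6:140622413-140622712, chr6:140624659-140624958 and chr6:140626635-140626934, plus strand) belong to a gene whose mean transcript length shifted. Capitals mark CCAAT or its reverse complement ATTGG (the NF-Y box) and GGGCGG or its reverse complement CCGCCC (the GC box).
Jarid2: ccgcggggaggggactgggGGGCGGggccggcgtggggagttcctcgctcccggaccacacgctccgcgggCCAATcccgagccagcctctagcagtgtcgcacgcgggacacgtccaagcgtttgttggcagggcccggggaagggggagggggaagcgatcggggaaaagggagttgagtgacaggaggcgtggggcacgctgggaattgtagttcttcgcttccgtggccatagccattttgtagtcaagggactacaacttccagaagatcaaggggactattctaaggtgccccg
Eed: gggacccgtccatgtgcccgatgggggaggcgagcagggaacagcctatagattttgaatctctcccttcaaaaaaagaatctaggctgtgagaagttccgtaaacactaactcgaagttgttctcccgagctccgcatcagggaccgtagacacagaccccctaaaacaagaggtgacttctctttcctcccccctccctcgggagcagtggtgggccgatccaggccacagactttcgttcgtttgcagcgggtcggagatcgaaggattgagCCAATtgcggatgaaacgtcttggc
Phf1: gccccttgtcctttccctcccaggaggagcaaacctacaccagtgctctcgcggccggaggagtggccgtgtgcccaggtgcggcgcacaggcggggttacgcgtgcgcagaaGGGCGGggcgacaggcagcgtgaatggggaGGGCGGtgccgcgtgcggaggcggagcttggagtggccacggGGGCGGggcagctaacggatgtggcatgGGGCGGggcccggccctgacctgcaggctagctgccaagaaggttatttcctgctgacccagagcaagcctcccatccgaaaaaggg
Ezh1: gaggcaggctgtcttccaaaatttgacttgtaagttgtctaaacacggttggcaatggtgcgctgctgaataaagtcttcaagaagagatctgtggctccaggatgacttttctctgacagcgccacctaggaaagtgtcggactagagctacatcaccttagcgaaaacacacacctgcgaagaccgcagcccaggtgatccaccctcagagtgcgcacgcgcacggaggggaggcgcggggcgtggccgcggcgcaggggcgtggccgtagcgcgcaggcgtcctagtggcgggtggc
Aebp2, first start: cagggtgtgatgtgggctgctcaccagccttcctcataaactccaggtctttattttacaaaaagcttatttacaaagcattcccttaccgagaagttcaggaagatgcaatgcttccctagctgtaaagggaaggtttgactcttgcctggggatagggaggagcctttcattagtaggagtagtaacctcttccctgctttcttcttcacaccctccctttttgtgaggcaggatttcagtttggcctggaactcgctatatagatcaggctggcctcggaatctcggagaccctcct
Aebp2, middle start: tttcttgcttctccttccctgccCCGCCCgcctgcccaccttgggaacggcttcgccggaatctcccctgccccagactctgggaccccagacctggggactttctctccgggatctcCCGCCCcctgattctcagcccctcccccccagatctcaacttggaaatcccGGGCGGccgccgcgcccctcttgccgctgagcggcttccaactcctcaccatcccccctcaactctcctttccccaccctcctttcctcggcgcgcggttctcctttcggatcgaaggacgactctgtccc
Aebp2, last start: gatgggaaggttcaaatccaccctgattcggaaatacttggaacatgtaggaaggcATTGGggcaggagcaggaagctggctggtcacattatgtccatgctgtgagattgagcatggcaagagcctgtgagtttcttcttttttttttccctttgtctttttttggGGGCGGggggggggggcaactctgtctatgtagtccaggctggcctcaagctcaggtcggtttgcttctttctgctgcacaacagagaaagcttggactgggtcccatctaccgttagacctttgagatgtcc

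Windows were listed for 9 of the 10 members (13 windows), and none for Epop. The member windows held a median of 23 CpG dinucleotides in 300 bases, against 7 over the 32851 windows of all genes. Suz12, with 41, and Phf19, with 38, were the most CpG-rich, and 3.46% and 4.95% of all windows held at least as many. Of the 3 Aebp2 windows, the middle one held 21 CpG and the outer ones 4 each, and of the 2 Mtf2 windows the first held 30 and the second 2. On either strand, CCAAT was present in 7 of the 13 member windows and in 37.4% of all windows, and GGGCGG in 8 of 13 and 35.7%. The E2F sequence TTTGGCGC was present in the Ezh2 window (0.514% of all windows), and TTTCCCGC in those of Suz12 and Phf19 (1.07%). TTTCGCGC (0.323%) and the E-box CACGTG (7.15%) were in no member window. Phf1 and Ezh1, the members that fell furthest, differed here: the printed Phf1 window has 4 GC boxes in capitals, and that of Ezh1 holds none of the 6 sequences searched.

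Levels of different members were compared only per transcript length, as the deposited TPM (transcript abundance scaled to a common total). At the late 2-cell stage (4 libraries, both arms) Mtf2 (175 to 424 TPM) and Suz12 (173 to 212 TPM) led and overlapped. Eed (80.4 to 109 TPM) and Ezh2 (65.9 to 86.6 TPM) overlapped below them, and Aebp2 was at 46.4 to 65.4 TPM. A group of low members followed, with Ezh1 at 6.62 to 8.14, Jarid2 at 5.76 to 7.12 and Phf1 at 4.07 to 9.75 TPM, which did not separate. Epop (1.01 to 2.30 TPM) and Phf19 (0.17 to 0.30 TPM) were lowest. The 8 libraries of the 4-cell stage kept Suz12 (176 to 267 TPM) and Mtf2 (142 to 254 TPM) highest, while Eed (96.0 to 174 TPM) reached into the range of Mtf2. In morulae (4 libraries) Eed (166 to 209 TPM) and Mtf2 (141 to 216 TPM) overlapped at the top. Suz12 (61.3 to 81.6 TPM) was next, and Ezh2 (35.0 to 50.7), Aebp2 (27.2 to 35.4) and Jarid2 (29.6 to 33.0 TPM) came close together. Epop (1.63 to 2.14) and Ezh1 (1.15 to 2.09) overlapped, and Phf1 (0.05 to 0.30) and Phf19 (0.01 to 0.14 TPM) were barely seen. The order of the core thus differed by stage: Suz12 was above Eed in each late 2-cell library and Eed above Suz12 in each morula library.

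**Figure D1:**
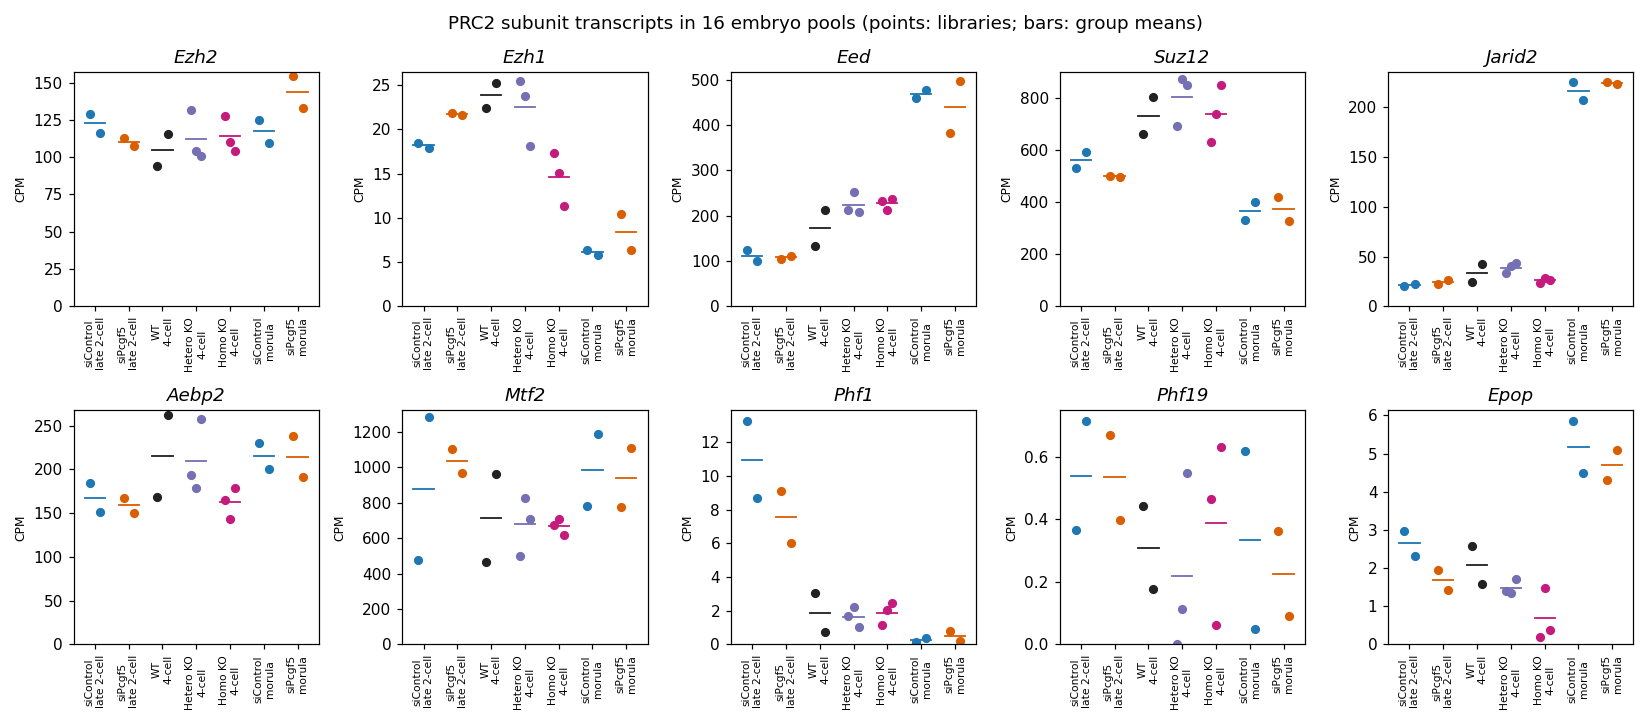
CPM (linear axes from 0) of the 10 PRC2 subunits in the 16 libraries, in 7 groups. Points are libraries and bars are group means. Jarid2 stood between 208 and 226 CPM in the 4 morula libraries and between 20.6 and 43.4 CPM in the 12 others, and Phf1 was highest at the late 2-cell stage.

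From late 2-cell to morula, 5 of the 10 members changed in siControl embryos: Jarid2 and Eed rose, and Ezh1, Phf1 and Suz12 fell. Over all 16980 genes tested 52.9% passed the same threshold (24.9% higher, 28.1% lower), so the share of members was close to that of all genes. The median log2 fold change of the members was 0.06, and that of all genes -0.34. In siPcgf5 embryos, in separate libraries, 5 of 10 passed (52.7% of all genes), namely Jarid2, Eed and Epop upward and Ezh1 and Phf1 downward, with a median of 0.10 against -0.38 over all genes. Groups did not overlap for 7 members in siControl (78.8% of all genes) and 9 in siPcgf5 (80.6%). Fold changes below are on the log2 scale of TMM-scaled counts with a standard error (SE) from edgeR's quasi-likelihood fit, and n = 2 libraries in each group. As the libraries come from whole embryos, fewer cells expressing a gene and less RNA per cell cannot be told apart.

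Among the catalytic subunits, Ezh1 fell and Ezh2 did not pass the test in either arm on the count scale. Ezh1 was at 18.5 and 17.9 CPM in siControl late 2-cell libraries and 6.35 and 5.85 CPM in siControl morulae, without overlap. The morula level was 33.7% of the late 2-cell level (log2 -1.57, SE 0.339, adjusted p = 0.0028). With siPcgf5 it went from 21.8 and 21.7 CPM to 10.4 and 6.37 CPM (log2 -1.40, adjusted p = 0.0053), a call that was lost without siPcgf5 morula replicate 2 (log2 -1.09, adjusted p = 0.063). Ezh2 was at 129 and 116 CPM in siControl late 2-cell libraries and 125 and 109 CPM in siControl morulae. These groups overlapped, and the difference of -0.06 had a 95% interval of -0.50 to 0.38. With siPcgf5, Ezh2 was at 113 and 108 CPM and then 154 and 133 CPM, without overlap, a difference of 0.36 (95% interval -0.08 to 0.80, adjusted p = 0.146). Ezh1 took 8.31% ± 0.34 (SD, n = 2) of the summed TPM of Ezh1 and Ezh2 at the late 2-cell stage and 3.09% ± 0.13 in morulae, both with siControl.

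The core subunits moved in opposite directions. Eed was at 123 and 100.04 CPM in siControl late 2-cell libraries and 461 and 478 CPM in siControl morulae. The 4 libraries did not overlap, and the morula level was 423% of the late 2-cell level (log2 2.08, SE 0.221, adjusted p = 2.5e-05). With siPcgf5 it rose from 105 and 111 CPM to 383 and 498 CPM (log2 2.01, adjusted p = 3.3e-05). Suz12 went from 532 and 595 CPM to 331 and 402 CPM with siControl, also without overlap. Its change of -0.61 (SE 0.212, adjusted p = 0.0322) was close to the threshold, and the call was lost without siControl morula replicate 1 (adjusted p = 0.255), without siControl morula replicate 2 (adjusted p = 0.0747) and in a fit of the compared groups alone (adjusted p = 0.0823). With siPcgf5, Suz12 was at 501 and 498 CPM and then 421 and 327 CPM, with a difference of -0.44 (adjusted p = 0.104) that did not pass, although the groups did not overlap. It was called there by DESeq2 (-0.53, adjusted p = 0.0346) and in a fit of the compared groups alone (-0.50, adjusted p = 0.0311). Limma on log2(TPM + 1) also called it (-1.31, adjusted p = 0.00081). That scale puts the same CPM per kilobase at a lower value in morulae, as given below, and the change includes this shift. The share of Eed in the summed TPM of Eed, Suz12 and Ezh2 was 24.5% ± 3.4 (SD, n = 2) at the late 2-cell stage and 64.9% ± 0.66 in morulae with siControl.

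Of the PRC2.2 subunits, Jarid2, a relative of the Jumonji demethylases that lacks their activity, made the largest rise of any member. It was at 20.6 and 22.3 CPM in siControl late 2-cell libraries and 226 and 208 CPM in siControl morulae. The morula level was 1015% of the late 2-cell level (log2 3.34, SE 0.217, adjusted p = 1.5e-06). With siPcgf5 it went from 22.4 and 26.1 CPM to 225 and 224 CPM (log2 3.19, adjusted p = 2.0e-06). Each of the 4 morula libraries was above each of the 12 earlier ones. Aebp2, a zinc finger protein that binds nucleosomal DNA, was at 184 and 151 CPM in siControl late 2-cell libraries and 230 and 201 CPM in siControl morulae. These did not overlap, but the difference of 0.37 (95% interval -0.10 to 0.84, adjusted p = 0.162) did not pass, nor did that of 0.41 with siPcgf5 (adjusted p = 0.123). Jarid2 took 9.89% ± 2.3 (SD, n = 2) of the summed TPM of Jarid2 and Aebp2 at the late 2-cell stage and 49.7% ± 0.93 in morulae with siControl. With siPcgf5 these shares were 11.4% ± 1.4 and 51.01% ± 4.0.

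**Figure D2:**
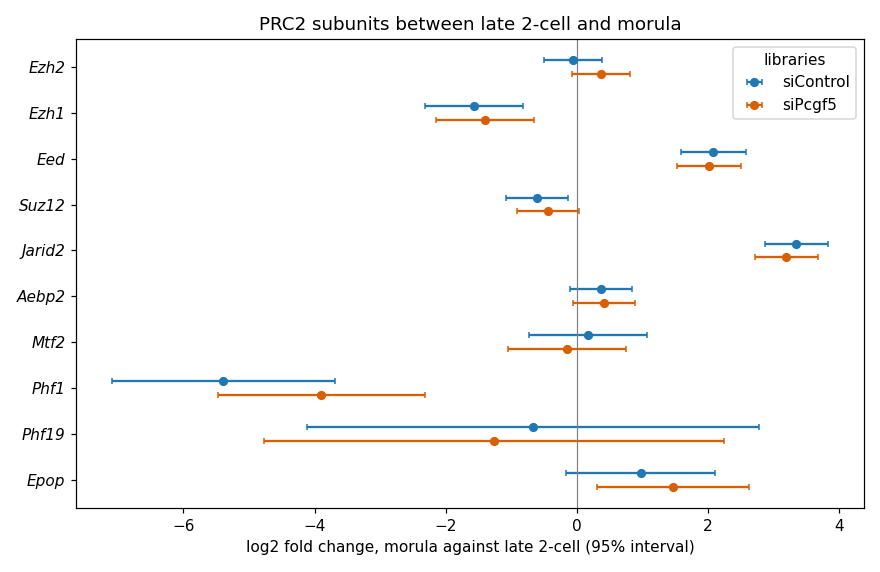
Log2 fold change of each PRC2 subunit from late 2-cell to morula, with 95% intervals, in siControl (blue) and siPcgf5 (orange) libraries. Jarid2 (3.34 and 3.19) and Eed (2.08 and 2.01) lie to the right of 0, Ezh1 (-1.57 and -1.40) and Phf1 (-5.39 and -3.90) to the left, and the intervals of Ezh2, Aebp2, Mtf2 and Phf19 cross 0 in both arms on this count scale.

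Of the PRC2.1 subunits, Mtf2 made up nearly all of the transcripts and Phf1 all but disappeared. Phf1, a Polycomb-like protein with a Tudor domain that reads H3K36me3, was at 13.3 and 8.67 CPM in siControl late 2-cell libraries and 0.155 and 0.358 CPM in siControl morulae. The morula level was 2.39% of the late 2-cell level (log2 -5.39, SE 0.768, adjusted p = 0.00018). With siPcgf5 it was at 9.09 and 6.05 CPM and then 0.822 and 0.228 CPM (log2 -3.90, adjusted p = 0.00095). The morula values rest on 6 to 25 expected counts per library, and the replicates differed by 2.31 times with siControl and 3.6 times with siPcgf5. Mtf2, its paralogue, was at 476 and 1280 CPM in siControl late 2-cell libraries and 782 and 1186 CPM in siControl morulae. The pairs overlapped, and the difference of 0.17 had a 95% interval of -0.73 to 1.07. Without siControl late 2-cell replicate 2 it was 1.01 (adjusted p = 0.016), and without replicate 1 it was -0.37, so these pairs do not fix its direction.

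Mtf2 was also the abundant member whose replicates differed most. The largest ratio between replicates of one group was 2.69 for Mtf2, against 1.31 to 1.71 for Ezh2, Suz12, Aebp2, Eed, Ezh1 and Jarid2. Its widest pairs were siControl late 2-cell (2.69 times) and WT 4-cell (466 and 961 CPM, 2.06 times). The siControl late 2-cell library with more Mtf2 also had more Pcgf5 (811 against 316 CPM). In every other group of 2 libraries the one with more Mtf2 had less Pcgf5. Pcgf5 was at 294 against 328 CPM in WT 4-cell embryos and at 166 against 246 CPM in siControl morulae. Mtf2 held 95.8% ± 3.4 (SD, n = 2) of the summed TPM of the 4 PRC2.1 subunits in siControl late 2-cell embryos and at least 97.5% in each library of the other groups. Epop, which links PRC2 to elongin B and C, was at 2.98 and 2.33 CPM and then 5.86 and 4.50 CPM with siControl (log2 0.97, adjusted p = 0.134), and at 1.95 and 1.43 CPM and then 4.30 and 5.10 CPM with siPcgf5 (log2 1.46, adjusted p = 0.0371). This last call did not hold with no filter (adjusted p = 0.0641) or in a fit of the compared groups alone (adjusted p = 0.0521). Nor did it hold with limma on log2(TPM + 1) (0.35, adjusted p = 0.246). The call with siPcgf5 was lost when any 1 of its 4 libraries was left out (adjusted p between 0.0793 and 0.167). Phf19, the remaining Polycomb-like protein, stayed at or below 0.714 CPM in all 16 libraries. It had 0 expected counts in Hetero KO replicate 1, where 3 counts would stand for 0.2 CPM.

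The direction of some members depended on the scale. One CPM per kilobase corresponded to 1.53 to 1.75 TPM in late 2-cell libraries, 1.19 to 1.43 at the 4-cell stage and 0.829 to 0.858 TPM in morulae. With limma on log2(TPM + 1), which understates the change of low genes, Ezh2 fell between the stages in siControl embryos (-1.05, adjusted p = 0.002) and Aebp2 fell (-0.81, adjusted p = 0.017), where the counts gave -0.06 and 0.37 with no call. Of the genes called on that scale 24.9% were higher in siControl morulae, against 47% on the count scale, and the median of all genes moved by -0.16 from that of the counts. The differences in TPM per CPM per kilobase are common to the genes of a library. The falls of Ezh2 and Aebp2 on this scale include them. The 1 added to TPM damps them in low genes, so the move of the median understates them. With siPcgf5, Aebp2 turned lower on the TPM scale (-0.67, adjusted p = 0.0376) and Ezh2 was at -0.50 (adjusted p = 0.0544), with 27.2% of the called genes higher against 46.5% on the count scale. DESeq2 size factors moved the median of all genes by -0.17 in siControl and left Jarid2, Eed, Ezh1, Phf1 and Suz12 called in the same directions. Those 5 kept their directions on both scales, and Jarid2 and Eed were higher in each morula library than in each late 2-cell library also in TPM.

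**Figure D3:**
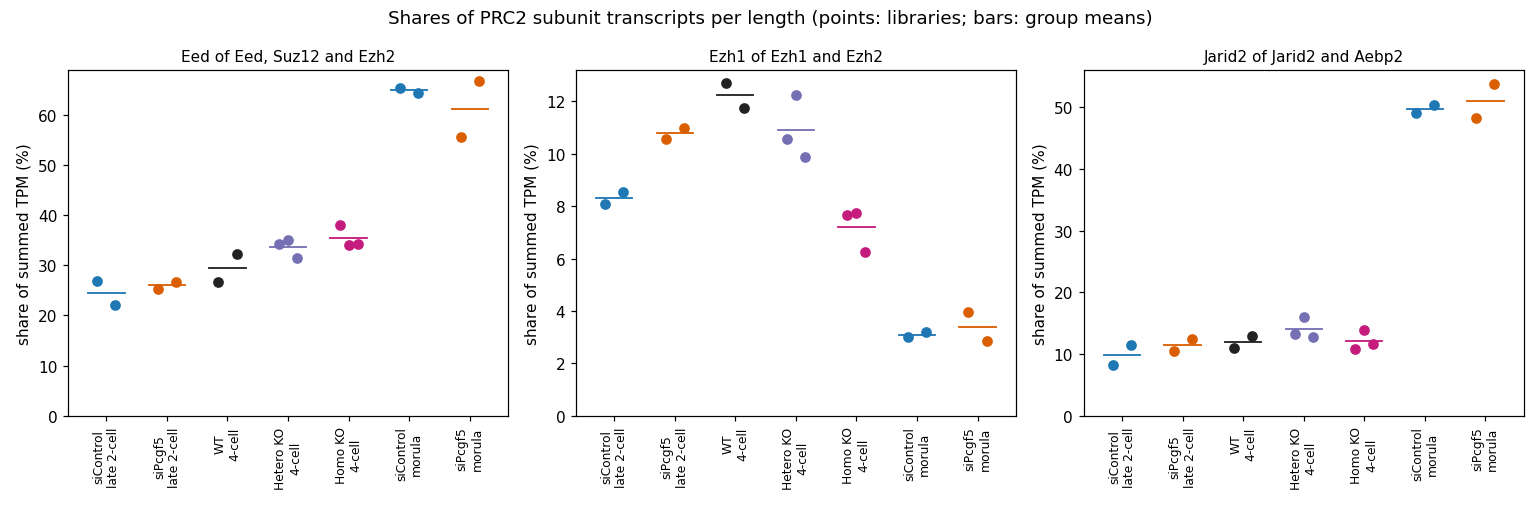
Share of Eed in the summed TPM of Eed, Suz12 and Ezh2, of Ezh1 in that of Ezh1 and Ezh2, and of Jarid2 in that of Jarid2 and Aebp2, in percent, by group. Points are libraries and bars are group means. The morula libraries stand apart, with Jarid2 between 48.2% and 53.8% of its pair against 8.28% to 15.99% in the 12 earlier libraries.

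The deposited files also give, for each gene, a transcript length weighted by the estimated abundance of its transcripts, which shifts when the mix of transcripts shifts. For Aebp2, with 5 RefSeq transcripts and the 3 starts printed above, it was 4842 and 5020 bases in siControl late 2-cell libraries and 5603 and 5613 bases in siControl morulae. With siPcgf5 it was 5067 and 4684 bases and then 5615 and 5684 bases. The 8 libraries of the 4-cell stage lay between 4651 and 5269 bases, so the 4 morula libraries were above each earlier one. The length of Mtf2, with 6 transcripts and 2 starts, went the other way: 4667 to 4679 bases in the 4 late 2-cell libraries, 4406 to 4595 at the 4-cell stage and 4496 to 4566 in morulae. Jarid2, with 3 transcripts, stayed between 5679 and 5948 bases. No test was made on these lengths. Eed, Ezh1, Phf19 and Epop have 1 transcript each in RefSeq.

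**Figure D4:**
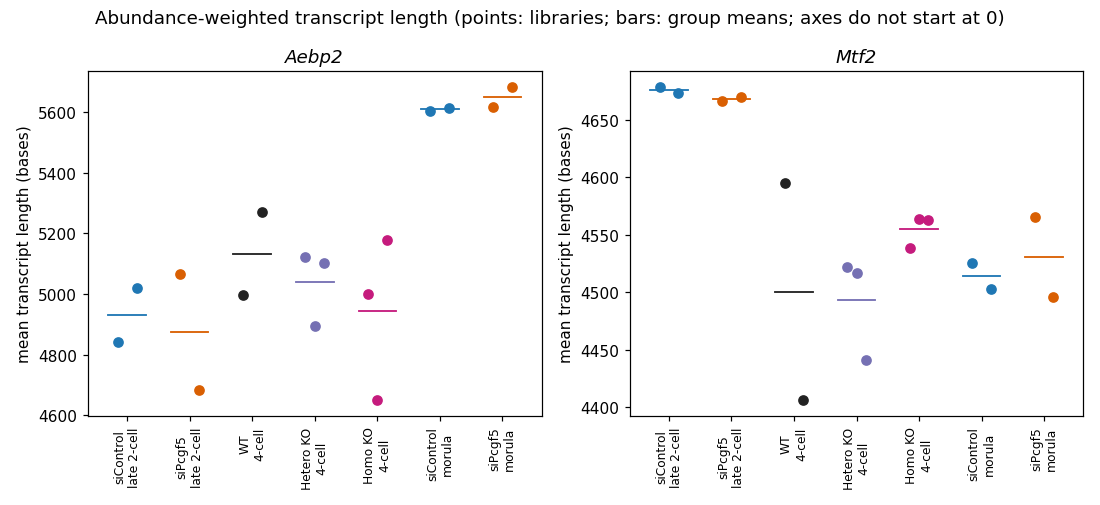
Abundance-weighted mean transcript length (bases) of Aebp2 and Mtf2 in each library, by group, on axes that do not start at 0. Points are libraries and bars are group means. Aebp2 lay between 5603 and 5684 bases in morulae and at most at 5269 bases before, and Mtf2 was longest at the late 2-cell stage.

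The WT 4-cell libraries place these changes in time, with the limit that stage, electroporation and experiment differ together between them and the siControl libraries and cannot be told apart. From siControl late 2-cell to WT 4-cell, 2 of 10 members passed (32.6% of 16669 genes), Eed upward and Phf1 downward. From WT 4-cell to siControl morula 5 of 10 passed (30.2% of genes), Jarid2 and Eed upward and Ezh1, Suz12 and Phf1 downward. The median change of the members was 0.07 in the first step (all genes -0.33) and 0.14 in the second (all genes 0). Jarid2 was at 24.6 and 42.1 CPM in WT 4-cell embryos. Its first step of 0.64 did not pass (adjusted p = 0.0569). Without WT replicate 1 it was 0.93 and passed (adjusted p = 0.0132), and without WT replicate 2 it was 0.18. The second step was 2.7 (adjusted p = 2.8e-06). Eed was at 133 and 212 CPM, with steps of 0.62 (adjusted p = 0.0422) and 1.45 (adjusted p = 0.00017). Its first step was lost without any 1 of siControl replicate 1, siControl replicate 2 or WT replicate 2, the library with few late 2-cell markers (0.23, adjusted p = 0.518). DESeq2 size factors, which moved the median of all genes by -0.19 in this step, also ended it (0.44, adjusted p = 0.148). So did no filter (adjusted p = 0.0645), DESeq2 (adjusted p = 0.14) and limma on log2(TPM + 1) (adjusted p = 0.371). It was lost as well in a fit of the compared groups alone (adjusted p = 0.236) and with a replicate block (adjusted p = 0.0613). Of the genes called, 53.6% were higher in the first step (43.4% with DESeq2, 31.4% on log2(TPM + 1)) and 49.4% in the second (31.7% on log2(TPM + 1)).

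For Ezh1 and Suz12 the fall was measured in the second step. Ezh1 was at 22.5 and 25.3 CPM in WT 4-cell embryos, above both siControl late 2-cell libraries, with a first step of 0.39 (95% interval -0.31 to 1.09) and a second of -1.97 (adjusted p = 0.0004). Suz12 was at 662 and 804 CPM there, also above both, with steps of 0.38 (95% interval -0.05 to 0.82) and -1.0 (adjusted p = 0.0016), and the 8 libraries of the 4-cell stage held its highest values (631 to 874 CPM). Phf1 fell in both steps, from 13.3 and 8.67 to 3.03 and 0.765 CPM (log2 -2.53, adjusted p = 0.0266) and then to the morula level (log2 -2.86, adjusted p = 0.0193). The first of these calls was lost without siControl replicate 1 (adjusted p = 0.12) or WT replicate 2 (adjusted p = 0.195), and the second without WT replicate 1 (adjusted p = 0.303) or either morula library (adjusted p = 0.163 and 0.0506). The second Phf1 call was also lost with limma on log2(TPM + 1) (-0.86, adjusted p = 0.0957) and in the compared groups alone (-2.95, adjusted p = 0.0831). Ezh2 was at 94.0 and 116 CPM in WT 4-cell embryos and passed in neither step on the count scale, while log2(TPM + 1) gave a first step of -0.58 (adjusted p = 0.0311).

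Knockdown of Pcgf5 was compared at each stage for its effect on PRC2 transcripts. At the late 2-cell stage 0 of 10 members passed edgeR's test (0.0118% of all genes), 0 had an unadjusted p under 0.05 (5.58% of genes), and DESeq2 and limma called 0. Their log2 differences ran from -0.64 (Epop) to 0.27 (Ezh1), with a median of -0.05 against -0.01 over all genes. Groups did not overlap for 5 members (31.1% of genes): Ezh2 (113 and 108 CPM with siPcgf5 against 129 and 116), Suz12 (501 and 498 against 532 and 595) and Epop were lower, and Ezh1 (21.8 and 21.7 against 18.5 and 17.9) and Jarid2 (22.4 and 26.1 against 20.6 and 22.3 CPM) higher. None of these 5 differences passed the test. The 95% intervals, as a percentage of siControl, were 66.9% to 123% for Ezh2, 72.9% to 201% for Ezh1, 70.6% to 136% for Eed and 64.7% to 124% for Suz12. They were 84.0% to 155% for Jarid2, 69.3% to 133% for Aebp2 and 63.6% to 222% for Mtf2. Late 2-cell markers summed to 1720 and 2104 CPM with siControl and 2582 and 3360 CPM with siPcgf5. All 8 were higher with siPcgf5 (median log2 difference 0.68), and 7 did not overlap (31.1% of genes). Of these 8 markers 0 passed edgeR's test, and their part in the differences of the members was not tested.

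In morulae 0 of 10 members passed (0% of genes), 0 had an unadjusted p under 0.05 (4.22% of genes), and DESeq2 and limma called 0. Ezh2 was at 154 and 133 CPM with siPcgf5 against 125 and 109 CPM, and Ezh1 at 10.4 and 6.37 against 6.35 and 5.85 CPM. These 2 catalytic subunits were the members whose groups did not overlap (31.4% of genes), both higher with siPcgf5. Their differences were 0.28 (95% interval -0.16 to 0.72) and 0.44 (-0.30 to 1.18), and without siPcgf5 morula replicate 1 that of Ezh1 was 0.06. Jarid2 was at 225 and 224 CPM against 226 and 208 CPM, and its interval was 75.9% to 139% of siControl. For Eed the interval was 67.2% to 129%, for Suz12 73.1% to 140%, for Aebp2 71.4% to 137% and for Mtf2 50.7% to 176%. The difference between the knockdown effects of the 2 stages passed for 0 of 10 members (0% of genes), with 0 at an unadjusted p under 0.05 (4.96% of genes) and 0 called by DESeq2 or limma. For Ezh2, lower with siPcgf5 at the late 2-cell stage and higher in morulae, it was 0.42 (adjusted p = 0.998).

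**Figure D5:**
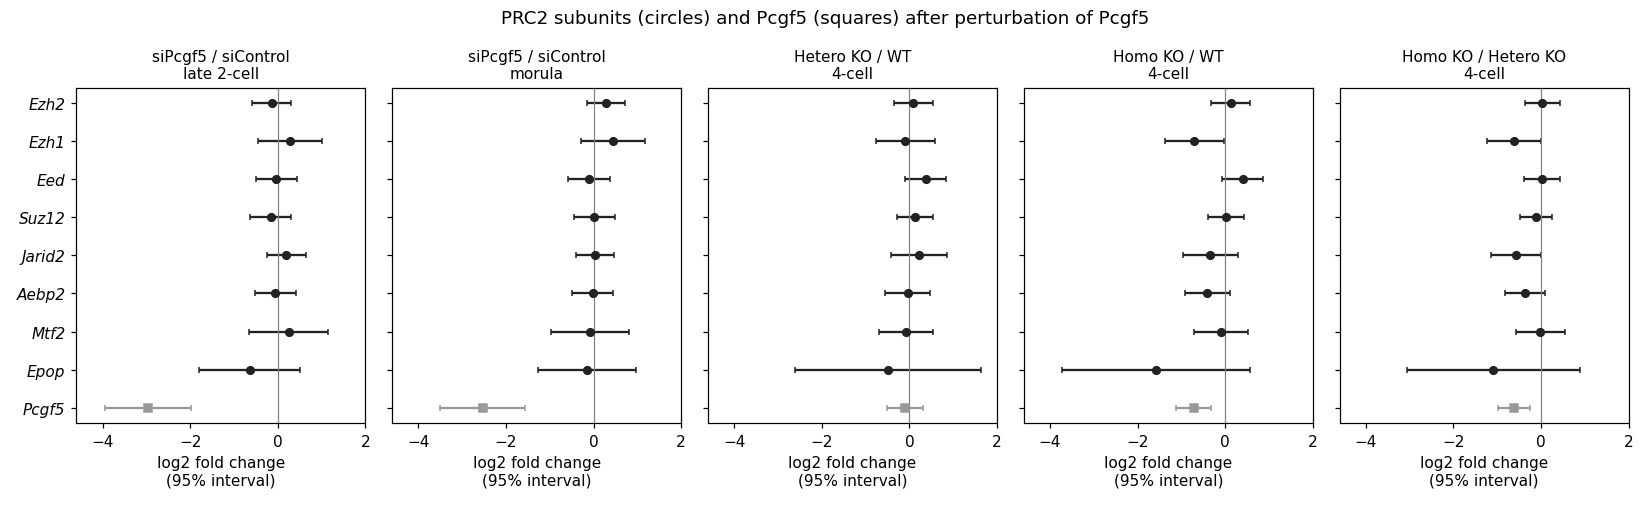
Log2 fold change with 95% intervals of 8 PRC2 subunits (circles) and of Pcgf5 (grey squares) in 5 comparisons, of perturbed with control embryos and of Homo KO with Hetero KO. Phf1 and Phf19 are left out for their low counts. Of the members, only Ezh1 has intervals that end short of 0, in Homo KO against WT (-1.38 to -0.03) and against Hetero KO (-1.23 to -0.0012), and neither passed after adjustment over all genes.

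At the 4-cell stage, 9 members passed the filter on low counts and Phf19 did not. In Homo KO against WT 0 of 9 passed edgeR's test (0% of genes), 1 had an unadjusted p under 0.05 (12.4% of genes), and DESeq2 and limma called 0. That member was Ezh1, at 17.3, 15.1 and 11.4 CPM in Homo KO against 22.5 and 25.3 CPM in WT, without overlap. The difference was -0.71 (95% interval -1.38 to -0.03, adjusted p = 0.392), and it lay between -0.84 and -0.56 with any 1 library left out. Eed was at 232, 213 and 238 CPM against 133 and 212 CPM (0.41, 95% interval -0.06 to 0.87, and 0.08 without WT replicate 1), and Epop at 0.2, 1.49 and 0.379 CPM against 2.59 and 1.59 CPM. These were the 3 members without overlap (30.4% of genes). The Ezh2 groups overlapped, with 127, 110 and 104 CPM in Homo KO and 94.0 and 116 CPM in WT, and the interval was 79.8% to 148% of WT. The intervals were 76.2% to 134% for Suz12, 50.9% to 122% for Jarid2, 53.2% to 107% for Aebp2 and 60.9% to 144% for Mtf2.

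Hetero KO against WT gave 0 of 9 members past the test (0% of genes), 0 at an unadjusted p under 0.05 (4.76%) and 0 without overlap (20.6%), and DESeq2 and limma called 0. In Homo KO against Hetero KO 0 of 9 passed (0% of genes), 1 had an unadjusted p under 0.05 (8.22%), again Ezh1, and DESeq2 and limma called 0. Ezh1 was at 25.5, 23.8 and 18.1 CPM in Hetero KO, so that each Homo KO library lay below each of these (-0.62, 95% interval -1.23 to -0.0012, adjusted p = 0.605). Jarid2 was at 23.5, 28.7 and 26.4 CPM in Homo KO and 33.3, 40.1 and 43.4 CPM in Hetero KO (-0.57, 95% interval -1.13 to 0.0039, adjusted p = 0.61). Aebp2, its PRC2.2 partner, was at 165, 143 and 178 CPM against 194, 178 and 257 CPM (-0.36, adjusted p = 0.709), the highest of the first group just below the lowest of the second. These 3 members did not overlap (14.7% of genes). WT shared the Homo KO range for Jarid2 in 1 library (24.6 CPM) and the Hetero KO range in the other (42.1 CPM). Ezh1 took 12.2% ± 0.68 (SD, n = 2) of the summed TPM of Ezh1 and Ezh2 in WT, 10.9% ± 1.2 (n = 3) in Hetero KO and 7.21% ± 0.83 (n = 3) in Homo KO. The late 2-cell markers summed to 335 and 36.6 CPM in WT and 192, 132 and 98.3 CPM in Hetero KO. In Homo KO they summed to 384, 380.03 and 459 CPM. In each comparison of these groups 0 of the 8 markers passed edgeR's test (0% of genes). At an unadjusted p under 0.05 there were 2 in Homo KO against Hetero KO (8.22% of genes) and 0 in either comparison with WT. In Homo KO against Hetero KO 6 of the 8 markers did not overlap (14.7% of genes), and 7 were higher (median log2 difference 1.68). In Homo KO against WT 2 did not overlap (30.4% of genes), and 7 were higher (median 0.92). In Hetero KO against WT 0 did not overlap (20.6% of genes), and 1 was higher (median -0.70). Sums of 2 other lists were higher in each Homo KO library than in the others. Cumulus and granulosa markers summed to between 5.04 and 13.8 CPM in Homo KO and between 0.889 and 2.21 CPM in WT and Hetero KO, with 4 to 6 of the 8 genes at 0 in each library. Only 1 of the 8 had enough counts to be tested. In edgeR's test of Homo KO it did not pass against WT (adjusted p = 0.312) or Hetero KO (adjusted p = 0.421). Blood markers, nearly all Hba-a2, summed to between 62.0 and 83.3 CPM in Homo KO and between 18.8 and 48.3 CPM in the others, with Hbb-bs and Hbb-bt at 0. Of the 6 blood genes 2 were tested, and 0 passed in any comparison of these groups. The part of these 3 lists in the values of Ezh1, Jarid2 and Aebp2 was not tested.

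Other genes of the pathway were read from fixed lists. Of 5 further PRC2 partners (Rbbp4, Rbbp7, Lcor, Lcorl and Ezhip, listed as AU022751), 1 rose and 1 fell from late 2-cell to morula in each arm, where 52.9% and 52.7% of all genes passed. Rbbp4, a histone-binding core subunit, rose from a mean of 36.9 to 113 CPM with siControl (log2 1.62, adjusted p = 0.00028) and by 1.93 with siPcgf5 (adjusted p = 9.3e-05). Its paralogue Rbbp7 was at 658 and 903 CPM with siControl, a difference of 0.46 that did not pass (adjusted p = 0.11). Ezhip, an inhibitor of PRC2 in germ cells, fell from 27.2 to 9.68 CPM with siControl (log2 -1.48, adjusted p = 0.0193) and by 1.75 on the log2 scale with siPcgf5 (adjusted p = 0.0087). Of the 2 H3K27 demethylases, Kdm6b rose in both arms (log2 1.80, adjusted p = 0.004, and 1.38, adjusted p = 0.0161). Kdm6a did not pass in either (-0.59, adjusted p = 0.0595, and -0.39, adjusted p = 0.19), but fell from WT 4-cell to siControl morula (-1.20, adjusted p = 0.0049).

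Of 5 H3K36 methyltransferases, whose mark PRC2 avoids, 0 rose and 2 fell with siControl: Nsd2 from a mean of 28.6 to 4.31 CPM (log2 -2.72, adjusted p = 5.5e-05) and Nsd3 from 20.3 to 7.06 CPM (log2 -1.51, adjusted p = 0.007), while 28.1% of all genes fell. With siPcgf5 3 fell, Nsd2 (-2.92, adjusted p = 3.8e-05), Nsd3 (-1.15, adjusted p = 0.0269) and Ash1l (-0.99, adjusted p = 0.0339), while 4787 of 16980 genes fell. Of 6 genes known for imprinting by maternal H3K27me3, 2 rose and 0 fell in each arm. Over all genes 24.9% rose with siControl, and 4162 of 16980 with siPcgf5. The 2 were Gab1 (log2 2.53, adjusted p = 0.00086, with siControl) and Xist (3.16, adjusted p = 0.00076), the non-coding RNA of X inactivation. From siControl late 2-cell to WT 4-cell 3 of the 6 rose, Sfmbt2 (3.14, adjusted p = 0.0016), Jade1 (2.02, adjusted p = 0.0016) and Gab1 (1.99, adjusted p = 0.0029). In this step 32.6% of all genes passed, and 2916 of 16669 rose. The 2 WT libraries were far apart for Sfmbt2, at 9.72 and 29.9 CPM. From WT 4-cell to the siControl morula, where 30.2% passed, Sfmbt2 and Jade1 fell (-1.87, adjusted p = 0.03, and -1.94, adjusted p = 0.002). Slc38a4 rose from a mean of 8.16 to 32.3 CPM (1.98, adjusted p = 0.0246). Its WT libraries stood at 2.78 and 13.5 CPM, and its mean in siControl late 2-cell embryos was 17.9 CPM. In the 5 comparisons of perturbed with control embryos and of Homo KO with Hetero KO 0 genes of these 4 lists passed.

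For the 7 members with a mean of at least 10 CPM, the 2 genes with the most similar profile were found among 6470 genes by the root mean square difference of centred log2 CPM over the 16 libraries. These were Kcmf1 (0.13) and Scpep1 (0.18) for Ezh2, and Acadm (0.13) and Scpep1 (0.18) for Aebp2. For Suz12 they were Kmt2c (0.14) and Lztfl1 (0.17), and for Eed Psma2 (0.19) and Nup37 (0.20). Ezh1 had Cbfa2t2 (0.27) and Ubn2 (0.29), Jarid2 had Mrpl11 (0.27) and Pmm1 (0.27), and Mtf2 had Ccdc107 (0.29) and Uck2 (0.30). Among the members themselves the closest pair was Ezh2 and Aebp2 (0.28), and no other member came within 0.47 of another. The measure is not scaled, so genes that change little lie close together whatever their profile. The SD of centred log2 CPM over the 16 libraries was 0.18 for Ezh2 and 0.27 for Aebp2, so their closeness does not show a shared profile. Jarid2 had its closest member in Eed (0.74).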

How the data were processed

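RNA was measured in 16 libraries with the SMART-Seq v4 PLUS kit, per the labels' protocols. Each deposited file gives an expected count, a TPM and an abundance-weighted length per gene, as the authors' RSEM run wrote them, per the file headers. The submitters' processing notes name STAR 2.7.10, RSEM 1.3.3, Bowtie2 2.4.5 and mm10 without roles, and filters are not given in the sources used here. The members, gene lists and tests were chosen with earlier results of these data known.

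Expected counts were rounded. The 8 knockdown libraries and the 8 libraries of the 4-cell stage were fitted apart, and the 16 together for WT against siControl. Genes were kept by filterByExpr (minimum count 10), with TMM scaling, and edgeR 4.0.16 in R 4.3.3 gave two-sided quasi-likelihood tests, adjusted by Benjamini-Hochberg over all genes tested, with a threshold of 0.05 and 95% intervals from the same fit. CPM use TMM over all 16 libraries. The script was tested on simulated data. Named genes were the members, Pcgf5, Rbbp4, Rbbp7, Kdm6a, Kdm6b and at most 4 called genes of each list with the smallest p. Motif windows are RefSeq's. Alternatives were DESeq2 1.42.0, limma 3.58.1 on log2(TPM + 1), other scaling, filter, block and sample choices. Nothing states that libraries came from separate cultures, so a p-value covers only the variation among the sequenced libraries, which may be technical. Reads carry no molecular identifiers, so floors cover counting error only. The 4 H2AK119ub1 libraries were not analysed here.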

Additional observations from a re-analysis of the deposited data

How the results depend on the processing

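With 2 or 3 libraries in a group the precision is limited, and 1 library left alone in its group was assumed to vary like the others. In all comparisons of perturbed with control embryos, and in the difference between stages, the number of members called was 0 under every alternative. From late 2-cell to morula the number called was between 4 and 7 of 10 with siControl and between 4 and 6 with siPcgf5 under other settings, and 4 to 6 and 3 to 4 with 1 library left out. From siControl late 2-cell to WT 4-cell the number fell from 2 to 1 with DESeq2 size factors, no filter, DESeq2, the compared groups alone and the replicate block, and ran from 0 to 3 with 1 library left out. The calls over all genes moved as well. From late 2-cell to morula, of 16980 genes, limma on log2(TPM + 1) called 2452 higher and 7388 lower with siControl. With siPcgf5 it called 2558 and 6846. The replicate block called 4045 and 4364 with siControl, and 3978 and 4433 with siPcgf5. From siControl late 2-cell to WT 4-cell, of 16669 genes, the main fit called 2916 higher and 2526 lower, and the replicate block 2828 and 2403. With CPM per kilobase in place of TPM, Ezh1's share with Ezh2 in siPcgf5 late 2-cell embryos was 11.1% (10.8% in TPM), and Eed's share in siControl morulae 64.0% (64.9%).

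The sign of the following values turned. On log2(TPM + 1) with limma, Aebp2 was at -0.81, Mtf2 at -0.64 and Epop at -0.0304 from late 2-cell to morula with siControl, Ezh2 at -0.50 and Aebp2 at -0.67 with siPcgf5, and Ezh2 at -0.47 from WT 4-cell to morula. Mtf2 was at -0.0052 with DESeq2 size factors and -0.0053 with DESeq2 with siControl. With 1 library left out, the stage change with siControl ranged from -0.17 to 0.0439 for Ezh2, -0.37 to 1.01 for Mtf2 and -3.29 to 0.21 for Phf19, and with siPcgf5 from -0.44 to 0.0901 for Mtf2. The knockdown effect in morulae ranged from -1.84 to 2.04 for Phf19 and -0.17 to 1.69 for Phf1, and the difference between stages from -1.84 to 2.04 for Phf19 and -0.36 to 0.95 for Pcgf5. At the 4-cell stage Ezh2 ranged from -0.0429 to 0.25 in Homo KO against WT, -0.0583 to 0.23 in Hetero KO against WT and -0.0549 to 0.15 in Homo KO against Hetero KO, where Phf1 ranged from -0.0499 to 0.48. Pcgf5 in Hetero KO against WT ranged from -0.21 to 0.0023.

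No strong difference shared by replicate number was seen, which cannot exclude that libraries were paired. The correlation of the difference between replicates 1 and 2 was -0.11 to -0.0002 between knockdown groups and -0.24 to 0.21 between groups of the 4-cell stage. With the replicate block 4 members were called in each stage comparison (Suz12 lost with siControl, adjusted p = 0.0501, and Epop with siPcgf5, adjusted p = 0.053). Crossing the numbers at the late 2-cell stage, an alternative chosen after seeing the data, called 1 gene in all, as the block did, and 0 members.

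The number of genes called over the whole transcriptome moved with the tool, the filter and single libraries where few passed. For siPcgf5 at the late 2-cell stage edgeR called 2 genes, 28 with no filter and 63 without siControl replicate 2, and for Homo KO against WT 0, 59 with no filter and 30 without WT replicate 1. With no filter it called 26 in siPcgf5 morulae and 33 for the difference between stages. DESeq2 called 72 and 23 genes for siPcgf5 at the late 2-cell stage and in morulae, 333 in Homo KO against WT, 7 in Hetero KO against WT and 111 in Homo KO against Hetero KO, where edgeR called 2, 0, 0, 0 and 0.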
